A study of Mus musculus with 4 samples.

Results

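Extracellular proteolysis genes were read out in primary neuron cultures in which the scavenger decapping enzyme DcpS had been depleted. The members were all row names of the deposited table that name a matrix metalloproteinase (Mmp), a tissue inhibitor of metalloproteinases (Timp), an ADAMTS protease (Adamts) or an ADAMTS-like protein (Adamtsl). The rule found 46 of the 32681 genes in the table: 18 Mmp, 4 Timp, 19 Adamts and 5 Adamtsl genes. The cultures came from the neocortex of wild-type CD-1 mouse embryos, an outbred strain, at embryonic day 13, and were grown in Neurobasal medium with B27 supplement. Of the 4 libraries, 2 were from cultures that received control shRNA, a short hairpin RNA, by transfection and 2 from cultures that received DcpS shRNA. The share of transfected cells is not in the labels. The libraries were made from total RNA of whole cultures, so fewer cells of a type and less RNA per cell cannot be told apart.

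Matrix metalloproteinases are zinc-dependent endopeptidases that cut collagens, gelatin, laminin, proteoglycans and cell-surface proteins. Most are secreted as inactive proenzymes, while the membrane-type enzymes sit at the cell surface and activate others there. ADAMTS proteases are secreted relatives with thrombospondin repeats that cut the large proteoglycans of brain matrix, trim procollagens or act in fibrillin assembly. ADAMTS-like proteins share their ancillary domains but lack the protease domain. TIMPs bind the active site of these enzymes and block it. In developing cortex the system is known for remodelling of the matrix around growing axons, vessels and synapses.

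Values are normalised read counts, that is reads divided by a size factor for each library. A gene was called when its Benjamini-Hochberg adjusted p in limma, fitted on log2(normalised read count + 1) of all genes tested, was under 0.05. Dcps itself was read at 499.8 and 506.6 in the control libraries and at 114.5 and 119.6 under DcpS shRNA, which leaves 23.3% of the control mean. Library totals ran from 17754768 to 21793685 reads, so a count of 0 allows up to 0.138 to 0.169 CPM (reads scaled to the library total). The chi-square of the counts, per degree of freedom, was 2.15 for the control pair and 4.03 for the DcpS shRNA pair, so neither pair is a duplicate within sampling noise. The labels do not give the litters behind each culture, and p-values then measure only the spread between these libraries, which may be technical. Neuron markers summed to 4788 and 4725 CPM in the control libraries and to 4556 and 4519 CPM under DcpS shRNA. All 8 of them were read in every library. Of these, 2 were called lower and 1 higher, beside 3.65% and 2.14% of all genes tested.

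Under DcpS shRNA, RNA was lower for the gelatinase Mmp9, the membrane-type collagenase Mmp14 and the proteoglycan-cleaving Adamts1, and higher for the membrane-type enzyme Mmp15. These were the 4 members called among the 36 that passed the filter on low counts. The filter kept 18110 of all genes, and 5.79% of them were called. Of the tested members 3 were called lower (8.33%), beside 3.65% of all genes tested, and 1 was called higher (2.78%), beside 2.14%. These shares rest on 4 genes. The median log2 fold change of the tested members was −0.22, with 23 below zero and 13 above, beside 0.00 over all genes tested. The remaining 32 tested members were not called, and 10 members were too low to test. Both DcpS shRNA libraries lay below both controls for 19 of the 36 tested members (52.8%), beside 24.0% of all genes tested, and above them for 6 (16.7%), beside 24.4%. Over all 46 members, the low ones included, the counts were 23 below and 8 above, beside 19.5% and 18.1% of all genes in the table, where groups of low genes can stand apart by 1 read or by the scaling alone.

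**Figure D1:**
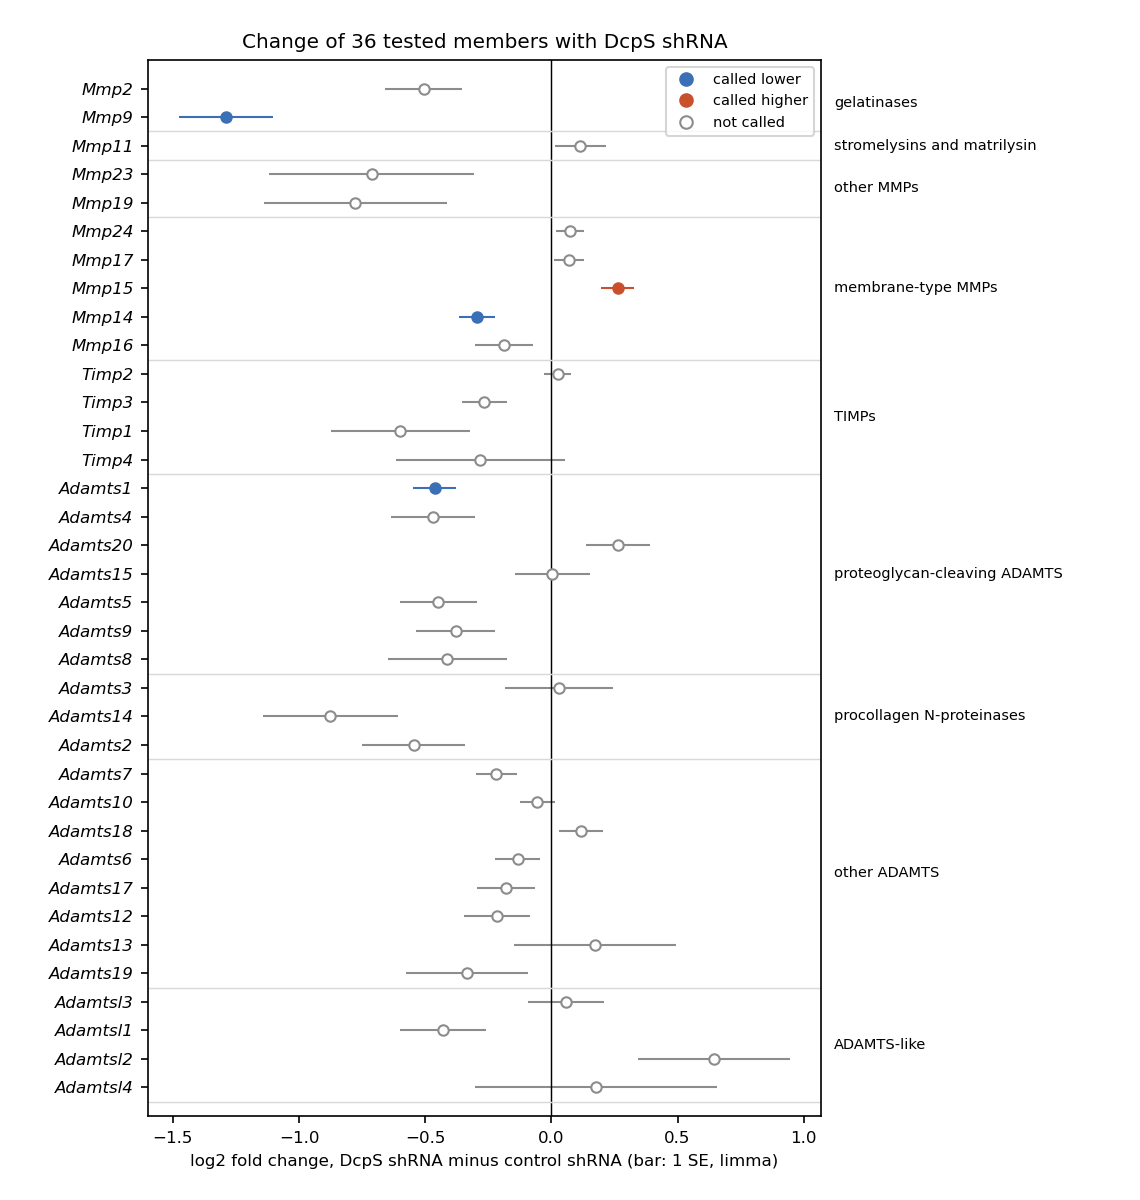
The plot gives the log2 fold change of each of the 36 tested members, DcpS shRNA minus control shRNA, with a bar of 1 SE from limma, grouped by family. Filled points mark the called members: Mmp9, Mmp14 and Adamts1 lie left of zero and Mmp15 right of it.

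Gelatinases degrade denatured collagen and the type IV collagen of basement membranes, and the genome has a pair of them, Mmp9 and Mmp2. Mmp9 (ENSMUSG00000017737, chromosome 2, 164940780 to 164955850, plus strand, GRCm38, GENCODE M21) was read at 138.7 and 162.0 in the control libraries and at 49.97 and 73.8 under DcpS shRNA. The groups were far apart, with the higher DcpS shRNA library well under the lower control. Its mean level fell from 150.4 ± 16.5 to 61.9 ± 16.8 (SD, n = 2 per group), which is 41.1% of control. The log2 fold change was −1.29 (SE 0.19, limma, Benjamini-Hochberg adjusted p 0.000494). Mmp9 was called in each of the 14 alternative analyses, with log2 fold changes from −1.57 to −1.01.

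Mmp2, the gelatinase that Mmp14 activates at the cell surface, had values on the same side but did not pass. It was read at 173.9 and 242.0 in the control libraries and at 156.3 and 133.0 under DcpS shRNA. The groups did not overlap, but the controls lay further apart than control 1 lay from either DcpS shRNA library. The log2 fold change was −0.51 (SE 0.15, limma, Benjamini-Hochberg adjusted p 0.0678). Without control 1 the adjusted p was 0.000333 and without DcpS shRNA 1 it was 0.00432, whereas without control 2 it was 0.524. With all 4 libraries and no filter on low counts beyond 1 read, limma called Mmp2 (Benjamini-Hochberg adjusted p 0.0281). The reads of both gelatinases together, per kilobase of exon, were 90.8 and 117.6 in the control libraries and 60.5 and 60.3 under DcpS shRNA. Within a library the ratio of Mmp9 to Mmp2 per kilobase was 0.760 and 0.638 in the control libraries and 0.305 and 0.528 under DcpS shRNA. The lower ratios under DcpS shRNA describe a steeper drop of Mmp9 than of Mmp2, and the difference between the genes was not tested.

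Of the Mmp genes 4 membrane-type enzymes had the highest levels per kilobase, and 1 of them fell and 1 rose. Mmp14 (ENSMUSG00000000957, chromosome 14, 54431612 to 54445364, plus strand), a collagenase anchored in the plasma membrane, was read at 689.8 and 691.2 in the control libraries and at 553.3 and 573.3 under DcpS shRNA. Both DcpS shRNA libraries lay below both controls, which differed little from each other. Its mean level fell from 690.5 ± 0.979 to 563.3 ± 14.1 (SD, n = 2 per group), or 81.6% of control, a log2 fold change of −0.29 (SE 0.07, limma, Benjamini-Hochberg adjusted p 0.0224). Mmp15 (ENSMUSG00000031790, chromosome 8, 95352268 to 95375080, plus strand), a related membrane-type enzyme, was read at 857.1 and 809.1 in the control libraries and at 1018.5 and 980.0 under DcpS shRNA. Its DcpS shRNA libraries were both above the controls. The mean rose from 833.1 ± 33.9 to 999.3 ± 27.2 (SD, n = 2 per group), or 119.9% of control, a log2 fold change of 0.26 (SE 0.06, limma, Benjamini-Hochberg adjusted p 0.0239).

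These opposite changes showed in the ratio of Mmp14 to Mmp15 per kilobase, which was 0.729 and 0.774 in the control libraries and 0.492 and 0.530 under DcpS shRNA. DESeq2, a count model, did not call Mmp14 (Benjamini-Hochberg adjusted p 0.175) or Mmp15 (0.169). It called 2 of the 36 tested members, Mmp9 and Adamts1, beside 2.50% of all genes tested. With control 2 left out, limma called neither Mmp14 (Benjamini-Hochberg adjusted p 0.0911) nor Mmp15 (0.212), and without control 1 it did not call Mmp14 (0.0768).

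The other membrane-type genes were not called. Mmp24, an enzyme known from neurons, was read at 1484 and 1451 in the control libraries and at 1540 and 1547 under DcpS shRNA (log2 fold change 0.07, SE 0.06). Mmp17, which is held by a lipid anchor, was read at 1047 and 1053 in the control libraries and at 1079 and 1125 under DcpS shRNA (0.07, SE 0.06). For both genes the DcpS shRNA libraries were the higher ones, by about 5% of the control mean (5.16% for Mmp24 and 4.97% for Mmp17). Mmp16, which can activate Mmp2, was read at 708.8 and 590.7 in the control libraries and at 638.7 and 505.1 under DcpS shRNA (−0.19, SE 0.11). Its groups overlapped, and limma called it lower without control 2 (Benjamini-Hochberg adjusted p 0.0482) or without DcpS shRNA 1 (0.00564). Mmp25, also lipid-anchored and known from neutrophils, had 11, 3, 3 and 4 reads in control 1, control 2, DcpS shRNA 1 and DcpS shRNA 2 and was not tested.

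**Figure D2:**
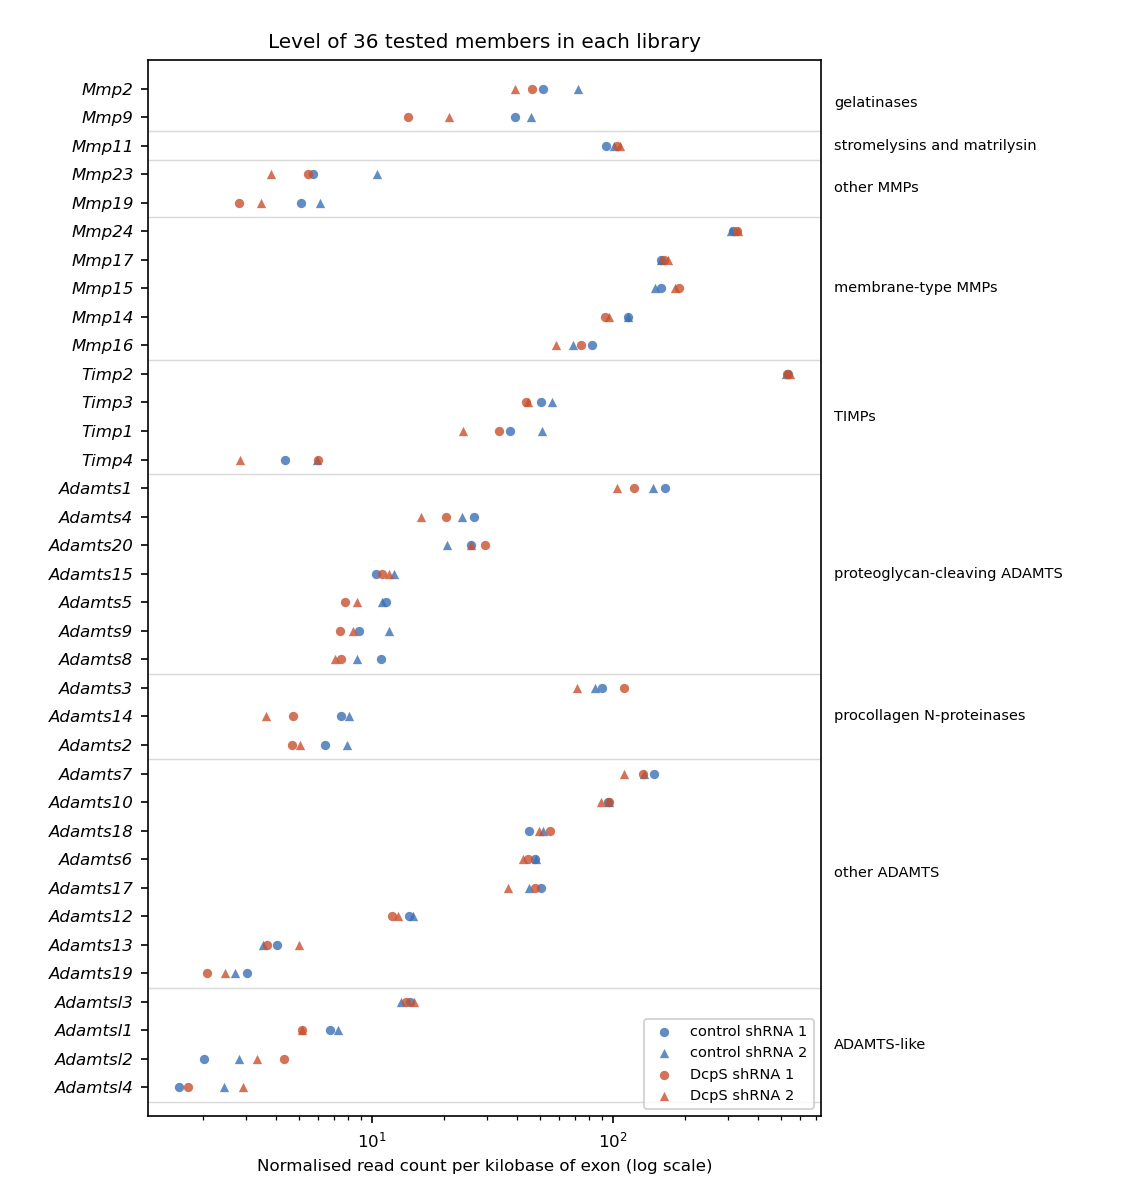
The plot gives the normalised read count per kilobase of exon (log scale) of the 36 tested members in each of the 4 libraries, blue for control and orange for DcpS shRNA, grouped by family. Timp2 and Mmp24 have the highest levels, and for Mmp9 both DcpS shRNA points lie left of both control points.

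Per kilobase of exon, Timp2 had the highest level of all members, with a control mean of 528 normalised reads per kilobase, followed by Mmp24 with 313. Next came Mmp17 (159), Adamts1 (156) and Mmp15 (154), and the control libraries of these 3 genes overlapped, so their order is not resolved. Adamts7 (142) and Mmp14 (116) followed. Adamts7 in control 1 (148.4) lay above Adamts1 in control 2 (147.2), so the order of these genes is not resolved either. The control mean of all 46 members together was 2451 normalised reads per kilobase. Of this, membrane-type enzymes held 33.4%, ADAMTS proteases 30.7%, TIMPs 25.7% and Mmp genes outside the membrane-type list 9.06%. With DcpS shRNA these shares were 36.1%, 28.6%, 26.4% and 7.72%. The Mmp genes outside the membrane-type list summed to 199.8 and 244.4 per kilobase in the control libraries and to 178.8 and 181.0 under DcpS shRNA.

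Among the Mmp genes that are neither gelatinases nor of the membrane-type list, stromelysin-3, Mmp11, was the most abundant. It was read at 261.3 and 282.0 in the control libraries and at 289.8 and 298.4 under DcpS shRNA (log2 fold change 0.12, SE 0.10, not called). Mmp19 and Mmp23 were low, with means of 0.781 and 0.752 CPM. Their values were lower under DcpS shRNA (log2 fold changes −0.78, SE 0.36, and −0.71, SE 0.40) and they were not called, with adjusted p of 0.263 and 0.374 (limma, Benjamini-Hochberg). Of the exonic bases of Mmp19, 22.3% are shared with Tmem198b on the opposite strand, and without a stated strand setting the reads of the pair cannot be told apart. Tmem198b was read at 217.6 and 186.6 in the control libraries and at 237.1 and 232.4 under DcpS shRNA.

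The collagenases, stromelysins and macrophage elastase that lie side by side on chromosome 9 were close to silent in all 4 libraries. Mmp13, Mmp12, Mmp3, Mmp10 and Mmp8 lie within 295972 bases (7272514 to 7568485, GRCm38). Together they had 8 and 18 reads in the control libraries and 9 and 8 under DcpS shRNA, and none was tested. Mmp13, a collagenase, had 3 and 5 reads in the control libraries and 3 and 4 under DcpS shRNA, and Mmp3, stromelysin-1, had 1 and 3 against 5 and 4. Mmp8, the neutrophil collagenase, had 1 and 2 reads in the control libraries and 1 and 0 under DcpS shRNA. Mmp12, the macrophage elastase, had 1 and 5 reads in the control libraries and Mmp10, stromelysin-2, had 2 and 3, and both were at 0 in the DcpS shRNA libraries. At these counts no difference was detectable. The remaining members not tested were Mmp21, Mmp28, Adamts16 and Adamtsl5, and the 10 together with Mmp25 had totals of 4 to 25 reads over the 4 libraries.

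Stretches around the start sites of 4 of these low genes, which carry a shared pair of words, and of 3 well-read members are shown. Each runs 5′ to 3′ along the gene from 70 bases before the RefSeq start site (GRCm38.p6), 90 bases in all. Capitals mark the words searched on both strands: the TATA box word TATAAA, the AP-1 word TGANTCA, bound by Fos and Jun proteins, and the GC box word GGGCGG, bound by Sp1. Neighbouring words can touch, as in Mmp14.
Mmp13 (chromosome 9, 7272444 to 7272533, plus strand): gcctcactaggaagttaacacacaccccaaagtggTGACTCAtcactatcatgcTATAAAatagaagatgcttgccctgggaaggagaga
Mmp12 (chromosome 9, 7347304 to 7347393, plus strand): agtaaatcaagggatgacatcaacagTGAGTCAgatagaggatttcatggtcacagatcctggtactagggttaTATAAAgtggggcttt
Mmp3 (chromosome 9, 7445752 to 7445841, plus strand): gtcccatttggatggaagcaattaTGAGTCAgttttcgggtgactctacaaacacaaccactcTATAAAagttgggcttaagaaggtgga
Mmp10 (chromosome 9, 7502272 to 7502361, plus strand): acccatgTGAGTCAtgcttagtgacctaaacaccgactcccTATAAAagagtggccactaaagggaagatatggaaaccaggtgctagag
Adamts1 (chromosome 16, 85803094 to 85803183, minus strand): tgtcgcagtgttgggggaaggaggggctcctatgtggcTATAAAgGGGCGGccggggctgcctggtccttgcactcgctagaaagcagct
Mmp14 (chromosome 14, 54431528 to 54431617, plus strand): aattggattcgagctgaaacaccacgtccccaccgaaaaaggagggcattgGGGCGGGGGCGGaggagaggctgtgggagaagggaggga
Mmp24 (chromosome 2, 155775272 to 155775361, plus strand): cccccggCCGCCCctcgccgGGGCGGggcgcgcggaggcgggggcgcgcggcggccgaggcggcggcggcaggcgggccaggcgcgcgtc

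The table of RefSeq promoters, 300 bases each, held 33 windows of 31 members, and Mmp9 was not among them. Mmp13, Mmp12, Mmp3 and Mmp10 each carried a TATAAA and a TGANTCA in 1 window, a pair found in 1.54% of all 32851 windows. No other member window held a TGANTCA, a word in 7.81% of all windows. TATAAA was in 8 of the 33 member windows, beside 13.6% of all windows, and among the called members with a window only Adamts1 had it. GGGCGG was in 22 of the 33 member windows, beside 35.7% of all windows, and in those of Mmp14, Mmp15 and Adamts1. Member windows also held more CG dinucleotides, with a median of 19 beside 7 over all windows. The shares of GGGCGG thus compare windows of unlike base content. A word is a match of letters and not a measured binding site.

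**Figure D3:**
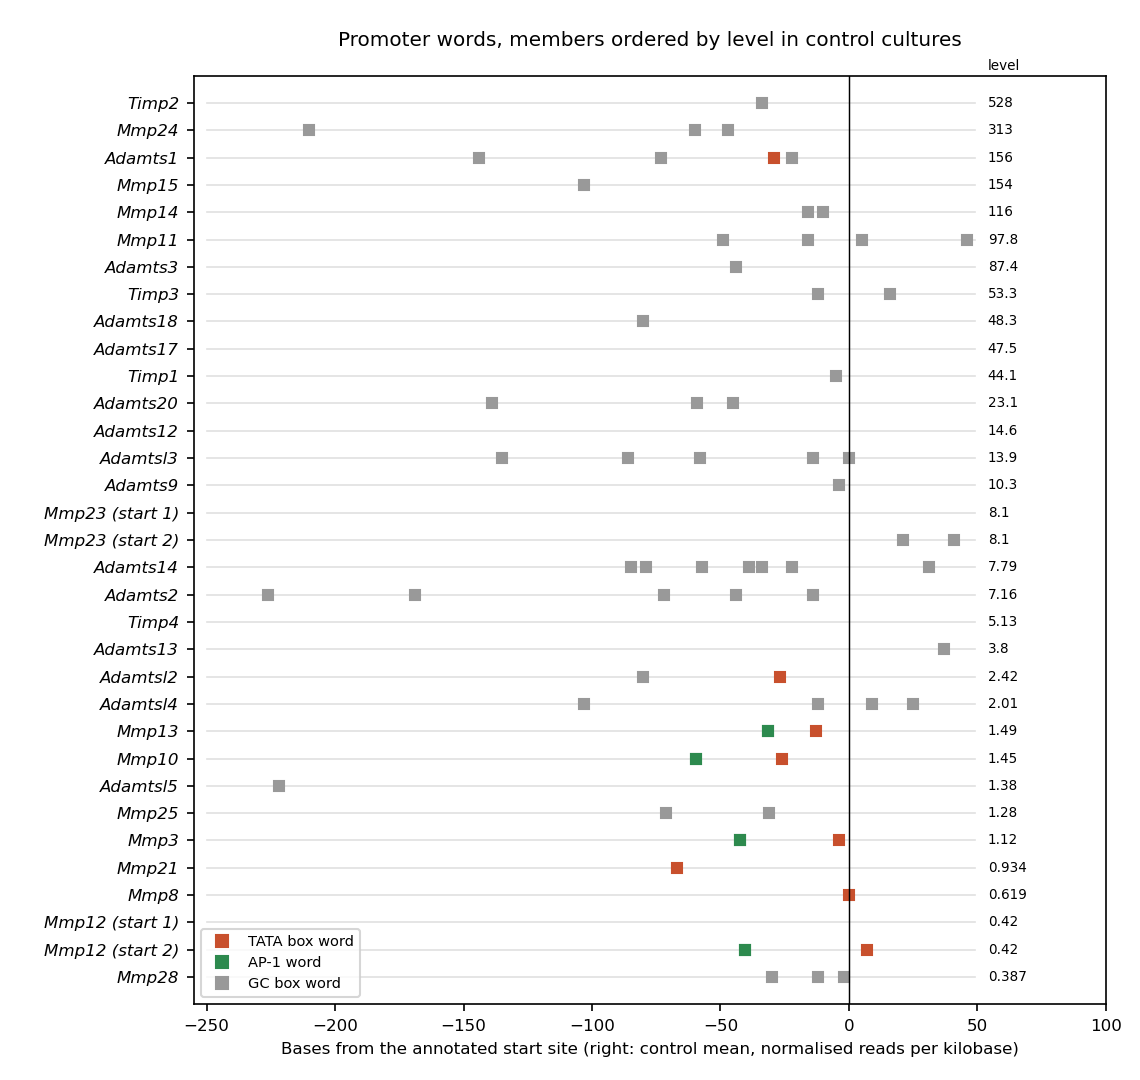
The map gives the position of TATA box, AP-1 and GC box words in bases from the annotated start site for the 33 promoter windows of 31 members, ordered by control level (normalised reads per kilobase, at the right). The 4 windows with an AP-1 word all belong to members with levels of 0.42 to 1.49.

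None of the 4 TIMP inhibitors was called by limma (2 had an unadjusted p under 0.05), edgeR or DESeq2. Timp2, a broad inhibitor that also takes part in Mmp2 activation by Mmp14, was read at 2069.5 and 2043 in the control libraries and at 2060 and 2123 under DcpS shRNA. The groups overlapped, with a log2 fold change of 0.02 (SE 0.05). Timp3, the inhibitor bound to the matrix, which also blocks ADAMTS proteases, was read at 411.4 and 456.4 in the control libraries and at 357.1 and 363.2 under DcpS shRNA. Its groups did not overlap, and the log2 fold change of −0.27 (SE 0.09) did not pass (limma, Benjamini-Hochberg adjusted p 0.102).

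Timp1, an inducible secreted inhibitor that binds the Mmp9 proenzyme, was low, at 33.3 and 45.1 in the control libraries and 30.0 and 21.2 under DcpS shRNA (log2 fold change −0.60, SE 0.28, limma, Benjamini-Hochberg adjusted p 0.257). Timp4 was read at 25.7 and 34.9 in the control libraries and at 35.4 and 16.8 under DcpS shRNA, so that the highest and the lowest library were both in the DcpS shRNA group. The ratio of Mmp9 to Timp1 per kilobase was 1.05 and 0.901 in the control libraries and 0.418 and 0.872 under DcpS shRNA, under DcpS shRNA 2 close to control 2. The ratio of Mmp14 to Timp2 was 0.218 and 0.221 in the control libraries and 0.176 in each DcpS shRNA library.

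Timp1, Timp3 and Timp4 each lie inside a synapsin gene, Syn1, Syn3 and Syn2 in that order, on the opposite strand. Synapsins coat synaptic vesicles and are abundant in neurons. Shared exonic bases make up 21.3% of the exons of Timp3 and 1.53% of those of Timp4, and Timp1 shares none with Syn1. Syn1 was read at 1665 and 1544 in the control libraries and at 1923 and 1958 under DcpS shRNA, and was called higher (log2 fold change 0.27, SE 0.06, limma, Benjamini-Hochberg adjusted p 0.00842). Syn2 was also called higher (0.33, SE 0.06, adjusted p 0.00337, limma, Benjamini-Hochberg). Syn3 was read at 390.5 and 403.0 in the control libraries and at 400.7 and 286.1 under DcpS shRNA and was not called. The values of Timp1 thus lay on the other side of zero from those of its host gene. Leaving out control 2 ended the call of Syn1 (limma, Benjamini-Hochberg adjusted p 0.145).

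The ADAMTS proteases that cut aggrecan, brevican, neurocan and versican had 1 call among 7 tested genes, beside 5.79% of all genes tested. That share rests on 1 gene. Adamts1 (ENSMUSG00000022893, chromosome 16, 85793827 to 85803113, minus strand), which cuts versican, was read at 876.1 and 780.4 in the control libraries and at 652.35 and 552.0 under DcpS shRNA. Both DcpS shRNA libraries lay below both controls. Its mean level fell from 828.2 ± 67.6 to 602.2 ± 70.9 (SD, n = 2 per group), or 72.7% of control, a log2 fold change of −0.46 (SE 0.09, limma, Benjamini-Hochberg adjusted p 0.00352). It was called in each of the 14 alternative analyses, with log2 fold changes from −0.58 to −0.34.

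Adamts4 and Adamts5, the main aggrecanases, had log2 fold changes of a size near that of Adamts1 but fewer reads. Adamts4 was read at 128.3 and 113.8 in the control libraries and at 98.1 and 77.1 under DcpS shRNA (−0.47, SE 0.16, limma, Benjamini-Hochberg adjusted p 0.120). Adamts5, which lies beside Adamts1 on chromosome 16, was read at 123.5 and 119.0 in the control libraries and at 83.6 and 93.9 under DcpS shRNA (−0.45, SE 0.15, limma, Benjamini-Hochberg adjusted p 0.109). In both genes the groups did not overlap and the call was missed. Adamts9 was read at 133.0 and 178.4 in the control libraries and at 110.8 and 126.3 under DcpS shRNA (−0.38, SE 0.16) and Adamts8 had a log2 fold change of −0.41 (SE 0.24). Adamts20 pointed the other way, at 231.8 and 184.6 in the control libraries and 266.2 and 232.4 under DcpS shRNA (0.26, SE 0.13), and Adamts15 had a log2 fold change of 0.00 (SE 0.15). Without control 1 Adamts9 was called lower (limma, Benjamini-Hochberg adjusted p 0.0271), and without DcpS shRNA 1 Adamts4 was (0.0204).

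The procollagen N-proteinases Adamts2, Adamts3 and Adamts14 cut the amino-terminal propeptide of fibrillar collagens. None of the 3 was called by limma (2 had an unadjusted p under 0.05), edgeR or DESeq2. Adamts14 had the lowest log2 fold change of any uncalled tested member, with values of 39.0 and 42.0 in the control libraries and 24.5 and 19.0 under DcpS shRNA (−0.88, SE 0.27, limma, Benjamini-Hochberg adjusted p 0.0675). Adamts2 was read at 59.9 and 73.8 in the control libraries and at 43.6 and 46.9 under DcpS shRNA (−0.55, SE 0.20). For both the DcpS shRNA libraries lay below the controls. Adamts3, which also cleaves reelin and is the most abundant of the 3 per kilobase, was read at 489.3 and 459.4 in the control libraries and 605.1 and 387.8 under DcpS shRNA. Here the DcpS shRNA libraries lay on either side of the controls. Its log2 fold change of 0.03 (SE 0.21) turned to 0.35 and a call without DcpS shRNA 2 (limma, Benjamini-Hochberg adjusted p 0.0118), and to −0.29 without DcpS shRNA 1 (0.0644).

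Of the other ADAMTS proteases 8 were tested and none was called by limma (1 had an unadjusted p under 0.05), edgeR or DESeq2, with log2 fold changes from −0.33 to 0.17. Adamts7, which cuts cartilage oligomeric matrix protein, was read at 932.1 and 848.1 in the control libraries and at 835.0 and 699.6 under DcpS shRNA (−0.22, SE 0.08, limma, Benjamini-Hochberg adjusted p 0.156). Its DcpS shRNA libraries lay below the controls, and without DcpS shRNA 1 it was called (limma, Benjamini-Hochberg adjusted p 0.00120). Adamts10, which acts in fibrillin microfibrils, was read at 789.6 and 799.9 in the control libraries and at 793.2 and 737.55 under DcpS shRNA (−0.06, SE 0.07). Its relative Adamts6 had values of 369.6 and 373.3 in the control libraries and 346.2 and 330.8 under DcpS shRNA (−0.13, SE 0.09). Adamts17 (−0.18, SE 0.12) and Adamts18 (0.12, SE 0.09) had groups that overlapped, while those of Adamts12 (−0.22, SE 0.13) did not. Without DcpS shRNA 1 the log2 fold change of Adamts17 was −0.36 and it was called (limma, Benjamini-Hochberg adjusted p 0.0324). Adamts13, the von Willebrand factor protease, and Adamts19 had means of 1.011 and 1.82 CPM.

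The ADAMTS-like genes held 1.09% of the members' normalised reads per kilobase in the controls, and none of 4 tested was called by limma (2 had an unadjusted p under 0.05), edgeR or DESeq2. Adamtsl3 was read at 112.1 and 102.6 in the control libraries and at 107.2 and 116.2 under DcpS shRNA (log2 fold change 0.06, SE 0.15). Adamtsl1 was lower in both DcpS shRNA libraries, at 65.4 and 65.9 beside 85.5 and 92.3 in the controls (−0.43, SE 0.17, limma, Benjamini-Hochberg adjusted p 0.180). Adamtsl2, a fibrillin-binding protein, had the highest log2 fold change of the tested members and was not called (0.65, SE 0.30, limma, Benjamini-Hochberg adjusted p 0.263). It had 16.2 and 22.6 normalised reads in the control libraries and 34.5 and 26.8 under DcpS shRNA.

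**Figure D4:**
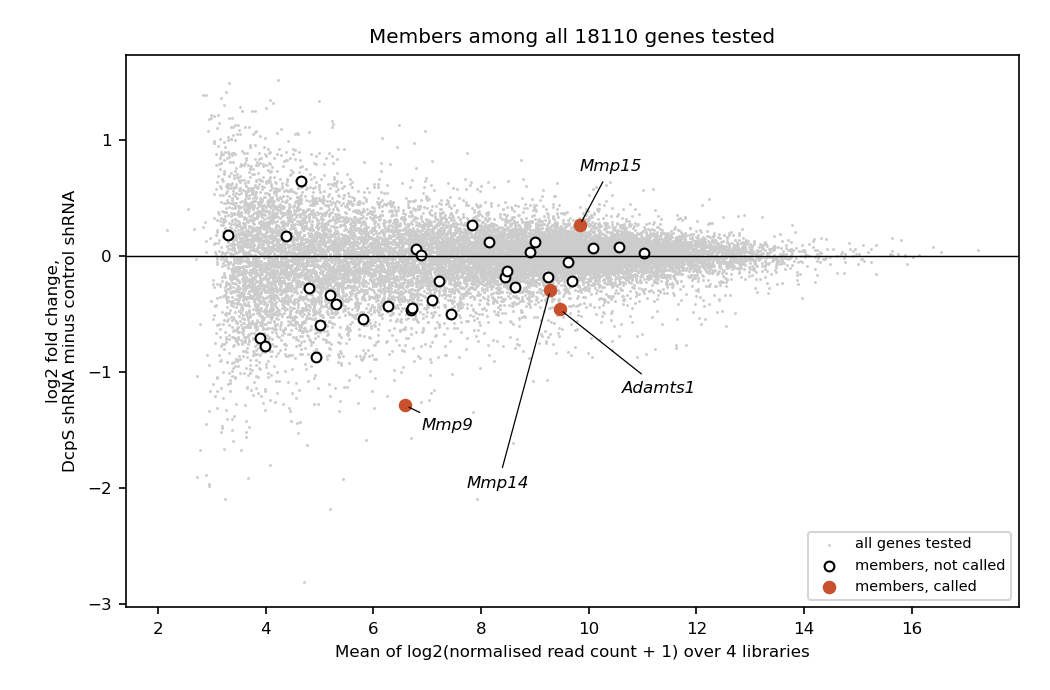
Each grey point is one of 18110 genes tested, with its mean log2(normalised read count + 1) over the 4 libraries on the x axis and its log2 fold change, DcpS shRNA minus control shRNA, on the y axis. The 4 called members are filled, and the open circles are the 32 tested members that were not called.

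The number of called members changed when DcpS shRNA 1 was left out. Without DcpS shRNA 1 the number of called members rose from 4 to 10 (9 lower, 1 higher), while 9.39% of all genes tested were called in that fit. In a fit with 1 library left out, the group with 1 library left is assumed to vary like the other group.

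**Figure D5:**
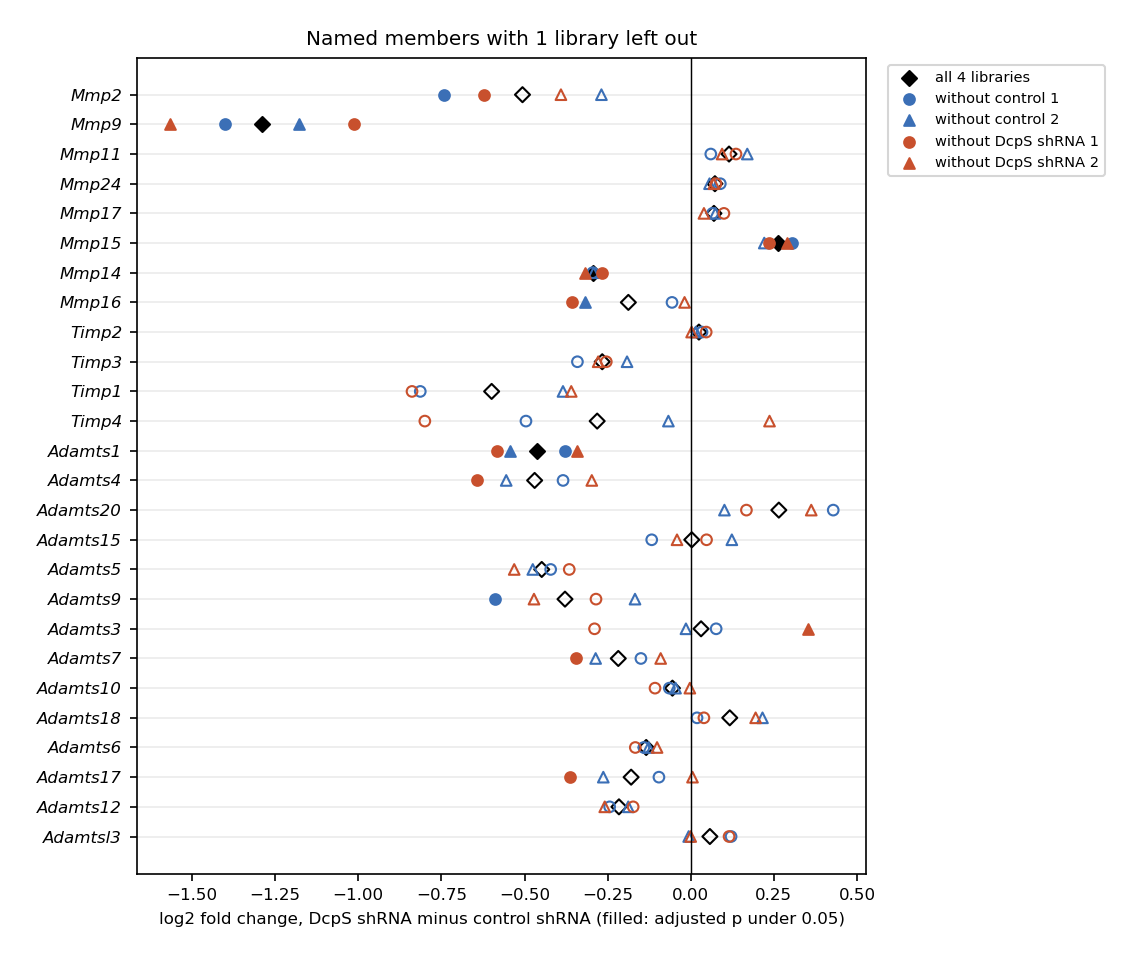
The plot gives the log2 fold change of the named members with all 4 libraries (diamonds) and with each library left out, filled where the limma adjusted p was under 0.05. Mmp9 and Adamts1 stay filled in every fit, while Adamts3 lies at −0.29 without DcpS shRNA 1 and at 0.35 without DcpS shRNA 2.

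Of 21 tested genes for activators, clearance receptors and inhibitors of extracellular proteolysis, 6 were called lower and 0 higher, beside 3.65% and 2.14% of all genes tested, with a median log2 fold change of −0.20 beside 0.00 over all genes tested, and DESeq2 called 3 lower. Furin, the convertase that removes the propeptide of membrane-type and ADAMTS proenzymes, was read at 670.8 and 634.8 in the control libraries and at 355.2 and 354.2 under DcpS shRNA (−0.88, SE 0.08, limma, Benjamini-Hochberg adjusted p 5.24e-06). Its relative Pcsk6 was read at 110.2 and 103.6 in the control libraries and at 76.3 and 46.9 under DcpS shRNA (−0.83, SE 0.21). A2m, the protease-trapping macroglobulin, was read at 365.8 and 400.0 in the control libraries and at 212.6 and 249.2 under DcpS shRNA (−0.73, SE 0.11). In these 3 genes the groups did not overlap. DESeq2 did not call Pcsk6 (Benjamini-Hochberg adjusted p 0.178). Its call was also lost when DcpS shRNA 2 was left out (limma, Benjamini-Hochberg adjusted p 0.158).

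Of 10 tested ADAM proteases, the membrane relatives that shed cell-surface proteins, 2 were called lower and 0 higher, beside 3.65% and 2.14% of all genes tested, with a median of −0.03. These were the sheddase Adam10 (−0.19, SE 0.05), read at 2588 and 2601 in the control libraries and at 2262 and 2295 under DcpS shRNA, and the non-catalytic synaptic protein Adam22 (−0.21, SE 0.06). DESeq2 called neither, and both calls were lost on leaving out control 1 (limma, Benjamini-Hochberg adjusted p 0.228 for Adam10 and 0.118 for Adam22) or control 2 (0.276 and 0.281).

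Among 18 tested matrix proteins that these enzymes cut, 10 were called lower and 1 higher, beside 3.65% and 2.14% of all genes tested, with a median of −0.23. DESeq2 called 8 lower and 0 higher. The collagens Col1a1, Col1a2 and Col3a1 and the microfibril protein Fbn1 led the list. Col1a1 was read at 2484 and 2652 in the control libraries and at 1475 and 1331 under DcpS shRNA. Fbn1 was read at 645.2 and 808.1 in the control libraries and at 403.4 and 288.3 under DcpS shRNA, and its call was lost without the filter on low counts (limma, Benjamini-Hochberg adjusted p 0.0947). Bcan, brevican of the perineuronal matrix, was the higher one, at 1300 and 1279 in the control libraries and 1545 and 1474 under DcpS shRNA. It was singled out after its values were seen. It was not called by DESeq2 (Benjamini-Hochberg adjusted p 0.163) or without control 1, control 2 or DcpS shRNA 1 (limma, 0.101, 0.184 and 0.0519).

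AP-1, NF-kB and Ets factors are known to act on Mmp promoters. Of 14 tested, 4 were called lower and 1 higher, beside 3.65% and 2.14% of all genes tested, with a median of −0.25, and DESeq2 called 2 lower and 0 higher. Ets1 was read at 124.5 and 133.3 in the control libraries and at 61.8 and 70.4 under DcpS shRNA (−0.96, SE 0.16), and the AP-1 member Fosl2 at 1022 and 1044 against 717.8 and 824.7 (−0.42, SE 0.07). Ets2 was also lower (−0.34, SE 0.09), and Jun, the AP-1 partner, was higher, at 991.0 and 930.2 in the control libraries and 1243 and 1115 under DcpS shRNA (0.29, SE 0.07). DESeq2 called neither Ets2 nor Jun, and both calls were lost on leaving out control 2 (limma, Benjamini-Hochberg adjusted p 0.0997 and 0.110).

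Markers of other cell types were summed in each library. The calls here and in the next paragraph stand beside 3.65% of all genes tested called lower and 2.14% called higher by limma. DESeq2 called 2.50% of all genes tested in either direction. Meningeal fibroblast markers, 10 of 10 read in every library, summed to 534.9 and 591.6 CPM in the control libraries. Under DcpS shRNA the sums were 337.3 and 322.5 CPM. Most of that sum was Col1a1, Col1a2 and Col3a1 (means of 100.2, 113.1 and 188.0 CPM), which are also counted among the matrix proteins above. Of the 10 markers 6 were called lower (3 by DESeq2). The 4 not called were Foxc1 (73.2% of control), Twist1 (72.9%), Ogn (99.4%) and Slc6a13 (126.8%). Mural cell markers summed to 68.3 and 69.5 CPM in the control libraries and to 59.3 and 55.3 CPM under DcpS shRNA. Notch3, the largest part of that sum (mean 32.5 CPM), was at 111.7% of control and was not called. Of the 7 tested, 2 were called lower, Acta2 (25.5%) and Pdgfrb (60.8%). Their median log2 fold change over the 7 was −0.72, with 5 below zero and 2 above. Endothelial markers were few, at 6.47 and 8.65 CPM in the control libraries and 5.09 and 5.41 CPM under DcpS shRNA, with Cldn5 and Tek at 0 in at least 1 library. Of the 4 tested, Kdr was called lower (log2 fold change −0.74, SE 0.18), though not by DESeq2, and Pecam1 was not called (0.93). Astrocyte markers summed to 441.0 and 455.5 CPM in the control libraries and to 432.7 and 443.1 CPM under DcpS shRNA. Aldoc, the largest part of that sum (mean 206.7 CPM), was the 1 called higher (115.6% of control). Of the 7 tested, 3 were called lower: Aqp4 (45.8%), Gfap (51.1%) and Gja1 (62.9%). The median log2 fold change was −0.43, with 6 below zero and 1 above. Choroid plexus markers summed to 282.4 and 293.0 CPM in the control libraries and to 214.0 and 230.0 CPM under DcpS shRNA. Most of that sum was Ttr, with a mean of 227.9 CPM. Of the 5 tested, 2 were called lower, Ttr and Aqp1 (1 by DESeq2). All 5 had log2 fold changes below zero, with Clic6 nearest to zero at 97.4% of control. The part of these cells in the lower Mmp9, Mmp14 and Adamts1 was not tested.

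Leukocytes are a known source of Mmp9, which had a mean of 5.35 CPM here. The source of its reads was not tested. Microglia and macrophage markers summed to 10.9 and 10.98 CPM in the control libraries and to 9.96 and 10.8 CPM under DcpS shRNA, and 0 of the 8 tested were called (limma, 1 at an unadjusted p under 0.05, and 0 by edgeR and DESeq2). P2ry12 and Trem2 were at 0 in at least 1 library. Of 8 neutrophil markers 4 were in the table, and their sum was 0.0459 to 0.192 CPM. Oligodendrocyte lineage markers summed to 35.9 and 37.5 CPM in the control libraries and to 34.2 and 34.4 CPM under DcpS shRNA. Radial glia markers summed to 1287 and 1208 CPM in the control libraries and to 1330 and 1311 CPM under DcpS shRNA. Of the 7 oligodendrocyte lineage markers tested, Mbp was called higher (log2 fold change 0.47) and Pdgfra lower (−0.63), and DESeq2 called neither. Pdgfra is also counted among the meningeal fibroblast markers above. Of the 6 radial glia markers tested, Nes was called higher (0.27), and all 6 had log2 fold changes above zero. Those of Vim (0.02, SE 0.05) and Fabp7 (0.00, SE 0.06) were close to zero. The groups overlapped for 4 of the 6, and for 2 both DcpS shRNA libraries lay above both controls, beside 24.4% of all genes tested.

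Earlier work on these data had picked out a pair of words of 7 bases, ACGTGCA and CACGTGC, which occur in Dcps transcripts. They were chosen because they are frequent in the 3′ UTRs of lower genes. Of 646 scanned genes called lower, 34.7% held at least 1 of the words, beside 6.79% of 368 called higher. As the words were chosen for that frequency, these shares are no independent result. Of the 36 tested members 2 (5.56%) held at least 1 of them in a 3′ UTR, beside 9.43% of all 13801 tested genes scanned. None of the 4 called members carried either word. Among all members, Mmp17, Adamts8 and Mmp25 did.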

How the data were processed

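Per the submitters' processing notes, HISAT2 2.2.0, SAMtools 1.3.1, Picard, featureCounts and DESeq2 were used with GRCm38, with no role or order stated. The annotation, strand setting and treatment of multi-mapped reads are not stated in the labels or notes. The deposited values are a signal: read counts divided by 1 size factor per library. Dividing by the smallest positive value of a column gave whole reads for 100% of values (tolerance 0.001), and the implied factors, 0.895 to 1.10, equalled median-of-ratios factors.

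Genes were filtered with filterByExpr (minimum count 10) of edgeR 4.0.16, which left 18110. limma 3.58.1 (R 4.3.3) was fitted to log2(normalised read count + 1) with the shRNA group as its single term and robust, trended empirical Bayes, two-sided. Fold changes on this scale understate those of low genes. Count models on the recovered reads (edgeR, DESeq2 1.42.0), scalings, pseudocounts, filters, a replicate block and leaving out each library were alternatives. With 2 against 2 an exact permutation test cannot go below 0.333. The fit was tested on simulated data.

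Named were members called, with a mean of at least 5 CPM, or TIMPs, and up to 4 called genes of each other list, of which 1 is not reported here. Others named (Mmp19, Mmp23, Adamts2, Adamts8, Adamts13, Adamts14, Adamts19, Adamtsl1, Adamtsl2, the genes too low to test, synapsins, Tmem198b and single cell type markers) were chosen after their values were seen. Members and lists were chosen with earlier results of these data known. Lengths, positions and 3′ UTRs are from GENCODE M21, promoters from RefSeq (GRCm38.p6).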

Additional observations from a re-analysis of the deposited data

How the results depend on the processing

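Mmp9 and Adamts1 kept their direction and their call in all 14 alternatives. Of 364 values of the 26 named members under the alternatives, 332 kept their direction and their side of the threshold, 5 lost the call (Mmp14 and Mmp15), 16 of 8 genes gained one, and 11 of 5 uncalled genes changed sign. All genes called numbered 453 with DESeq2 in place of 1048, 1626 with the replicate block in limma, and 747 to 1745 with 1 library left out, the last without DcpS shRNA 1. Members called numbered 2 with DESeq2, 9 with the replicate block in limma, 7 with the block in edgeR, and 3 to 10 with 1 library left out. The labels do not say that a number marks a shared preparation, and deviations of same-numbered libraries had a correlation of 0.0429 across genes, so the block pairs libraries by number only. In limma it added Timp3 (adjusted p 0.0458), Mmp2, Adamts4, Adamts7 and Adamts14 to the called members, and the call of Fbn1 was lost with it (adjusted p 0.299 in limma and 0.270 in edgeR). Signs changed for Adamts15 (log2 fold change 0.00) with edgeR (−0.0060), DESeq2 (−0.0025) and the edgeR replicate block (−0.00077). With 1 library left out the log2 fold changes ran from −0.12 to 0.12 for Adamts15, from −0.0063 to 0.12 for Adamtsl3, from −0.29 to 0.35 for Adamts3, from −0.80 to 0.24 for Timp4 and from −0.36 to 0.0051 for Adamts17. The cause of these moves was not tested. At 17754768 to 21793685 reads a library, the 10 members with totals of 4 to 25 reads could not be compared.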
